A study of Mus musculus with 30 samples.

Results

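Box H/ACA small nucleolar RNAs (snoRNAs) and small Cajal body-specific RNAs (scaRNAs) were followed through small RNA libraries of mouse cortex as the short fragments that each library contained. The members were all GENCODE vM21 genes whose symbol begins with Snora or Scarna, or whose biotype is scaRNA, and 95 of 55450 annotated genes met this rule. Genes at the same or overlapping positions were merged, which left 87 loci with an annotated length of 70 to 414 nt and a median of 136 nt. The set also held scaRNAs of other box types, since the rule asked for the symbol or the biotype and not for the H/ACA boxes. A fragment was counted for a member when the whole sequenced insert matched the annotated RNA exactly, in the sense direction. Small RNA of 15 to 50 nt had been cut from a gel after cortex was taken at 6 months of age from WT animals and from the 5xFAD strain, called AD mice here. Per the study's methods the 5xFAD animals were hemizygous, the WT animals were their littermates, and males and females were used. The strain is a transgenic model of amyloid deposition. The traditional-seq libraries (7 WT and 7 AD) were made from this RNA directly, and the PANDORA-seq libraries (8 WT and 8 AD) were made after T4 polynucleotide kinase, which repairs RNA ends, and AlkB, which removes methyl groups that stop reverse transcription. The labels number the libraries within each group and do not give the mouse or its sex, so the tests measure the spread between libraries.

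H/ACA RNAs fold into hairpins whose internal loops pair with a target RNA and place a uridine for conversion to pseudouridine by dyskerin, which works in a complex with Gar1, Nhp2 and Nop10. The box ACA lies close to the 3′ end of the mature RNA and marks where the 3′ end is set. The snoRNAs act on ribosomal RNA in the nucleolus, scaRNAs act on spliceosomal snRNAs in Cajal bodies, and most are cut out of introns of host genes. Some H/ACA RNAs contain a hairpin that is also annotated as a miRNA precursor.

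The most abundant single PANDORA-seq fragments of 9 members are shown, chosen for the level of the member or for the difference between the protocols. The ACA box is in capitals where the fragment contained it near the annotated 3′ end, and bases 2 to 8 are in capitals in the Scarna3a and Scarna3b fragments, which lay in annotated miRNA hairpins.
Snora7a: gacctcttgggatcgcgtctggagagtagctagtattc
Scarna10: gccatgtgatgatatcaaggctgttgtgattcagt
Gm23751: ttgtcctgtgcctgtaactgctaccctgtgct
Scarna3b: tATGGAGGtctctgtctgact
Scarna3a: tCCGATCGttcccctccata
Scarna2: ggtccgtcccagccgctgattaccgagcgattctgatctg
Gm25492: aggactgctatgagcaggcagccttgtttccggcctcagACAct
Snora70: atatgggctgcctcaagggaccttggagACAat
Snora52: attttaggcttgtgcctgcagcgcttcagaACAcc
The fragments of Snora7a, Scarna10 and Gm23751 started at base 1 of the annotated RNA, those of Scarna2, Gm25492, Snora70 and Snora52 ended 1 nt before its last base, and those of Scarna3b (bases 78 to 98) and Scarna3a (bases 117 to 136) were internal. The 38-nt Snora7a fragment (GRCm38 chr6:115808077-115808114, minus strand, in Rpl32) averaged 84.96 ± 50.6 RPM (SD, n = 16), where RPM is the number of reads per 1000000 reads of the library, and made up 49.1% of all Snora7a reads. The 35-nt Scarna10 fragment (chr6:125186649-125186683, minus strand, in Ncapd2) averaged 25.6 ± 14.6 RPM, and the 32-nt Gm23751 fragment (chr6:125121724-125121755, plus strand, in an intron of Chd4) averaged 13.3 ± 9.82 RPM. In traditional-seq these 3 sequences averaged 0.00502, 0.0677 and 0.0273 RPM. The 21-nt Scarna3b fragment (chr12:80391654-80391674, minus strand) averaged 10.4 RPM and the 20-nt Scarna3a fragment (chr1:159340399-159340418, plus strand) 5.07 RPM, and both had more in traditional-seq (83.8 and 6.72 RPM). The other 4 fragments were 40 nt of Scarna2 (chr3:108554339-108554378, minus strand), 44 nt of Gm25492 (chr5:135053989-135054032, minus strand), 33 nt of Snora70 (chrX:74272587-74272619, plus strand) and 35 nt of Snora52 (chr7:141448904-141448938, plus strand). Their means were 1.96, 4.85, 4.12 and 2.89 RPM. The Snora70 fragment also matched the snoRNA gene Gm23855, so its reads cannot be assigned to either gene alone.

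In traditional-seq the most abundant fragments were 20 to 23 nt long, and Scarna3a, Scarna3b and Gm25492 appear in both sets. They are printed with bases 2 to 8 in capitals where the fragment lay in an annotated miRNA hairpin, and with the ACA box in capitals where the fragment contained it near the annotated 3′ end.
Scarna3a: tCCGATCGttcccctccatac
Scarna3b: tATGGAGGtctctgtctgactt
Scarna3a and Scarna3b: aTGGAGGTctctgtctgactt
Mir1839: aAGGTAGAtagaacaggtcttg
Snora36b: tATTCATTtactccccagcctac
Snora30: cagctgttactcaagggaac
Snora3: tccgaggctagagtcacgctca
Gm25492: cttgtttccggcctcagACActg
Snora41: ggaggattatgtgtgacagACA
The Mir1839 fragment (chr7:81529919-81529940, plus strand, within a scaRNA gene that vM21 names Mir1839) averaged 236 ± 111 RPM over the 14 libraries. The fragments of Scarna3b (chr12:80391653-80391674, minus strand) and Scarna3a (chr1:159340399-159340419, plus strand) averaged 179 ± 50.3 and 139 ± 66.9 RPM. The third sequence occurs in both Scarna3 genes and averaged 118 ± 47.9 RPM, and it entered sums over the class but neither gene. The 20-nt Snora30 fragment (chr7:127527980-127527999, plus strand) averaged 24.04 RPM and also matched the snoRNA gene Gm25133, which is not a member. The Snora3 fragment (chr7:109520120-109520141, plus strand) started at base 1 of the RNA. The Gm25492 fragment (chr5:135053988-135054010, minus strand) ended at the last annotated base, and the Snora41 fragment (chr1:63179111-63179132, plus strand) ended right after the ACA box. The Snora36b fragment lay at chr1:185243012-185243034 on the plus strand.

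For comparison, the mature miRNAs that RefSeq annotates in the same hairpins (GRCm38) are given with the seed, bases 2 to 8, in capitals.
mmu-miR-1839-5p: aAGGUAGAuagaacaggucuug
mmu-miR-1843a-5p: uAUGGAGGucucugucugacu
mmu-miR-1843b-5p: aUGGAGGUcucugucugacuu
mmu-miR-1843b-3p: cCGAUCGUuccccuccauac
mmu-miR-664-3p: uAUUCAUUuacuccccagccua
None of these 5 share a seed. The Mir1839 fragment was the annotated mature sequence, and the sequence shared by both Scarna3 genes was that of mmu-miR-1843b-5p. The most abundant Scarna3a fragment started at base 117 of the RNA, 1 nt before the annotated start of mmu-miR-1843b-3p at base 118, and the annotated 3p sequence itself averaged 0.232 RPM in traditional-seq. The Scarna3b and Snora36b fragments had the start of mmu-miR-1843a-5p and mmu-miR-664-3p and were 1 nt longer.

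PANDORA-seq libraries held 54926347 to 105876141 reads, of which 23226 to 89373 were member fragments, and traditional-seq libraries held 9370669 to 17053412 reads with 10595 to 26376 member fragments. The longest sequence deposited was 45 nt in PANDORA-seq and 42 nt in traditional-seq. The summed neuronal miRNA hairpins (Mir124, Mir9, Mir128 and Mir138) averaged 151301 RPM (WT) and 138017 RPM (AD) in traditional-seq, and 4237 and 4087 RPM in PANDORA-seq, so the defining miRNAs of the labelled tissue were present in each group. Hairpins of oligodendrocytes averaged 63.3 to 853 RPM across the groups, of endothelium 15.2 to 5262 RPM, of epithelium 19.4 to 634 RPM, of liver 94.7 to 199 RPM and the myeloid Mir223 0.167 to 1.37 RPM. In PANDORA-seq, erythroid hairpins ran from 84.3 to 275 RPM in WT and from 91.9 to 1637 RPM in AD libraries, and skeletal muscle hairpins from 2.01 to 6.70 RPM and from 2.84 to 192 RPM. In traditional-seq, erythroid hairpins ran from 131 to 346 RPM in WT and from 98.6 to 345 RPM in AD libraries. Skeletal muscle hairpins ran there from 323 to 3310 RPM in WT and from 270 to 7914 RPM in AD libraries. Single traditional-seq libraries reached 3755 RPM (WT) and 3215 RPM (AD) of epithelium hairpins, where the medians were 114 and 138 RPM. Library 3 of both genotypes in PANDORA-seq had the fewest distinct sequences. Antisense matches to members averaged 0.139 RPM in PANDORA-seq and 0.285 RPM in traditional-seq.

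Member fragments made up a smaller share of the reads in PANDORA-seq than in traditional-seq, and the genotypes overlapped in both protocols. In PANDORA-seq they summed to 696 ± 141 RPM for WT (lowest 499, median 673, highest 973) and 699 ± 173 RPM for AD mice (lowest 423, median 686, highest 947). The values of the genotypes overlapped over most of their range. In traditional-seq the sums were 1654 ± 302 RPM for WT (lowest 1288, median 1650, highest 2221) and 1557 ± 293 RPM for AD mice (lowest 1024, median 1547, highest 1963), and these overlapped as well. Every traditional-seq library lay above every PANDORA-seq library. Of the 87 loci, 75 had at least 1 read that matched no other member and 12 had none. Some of these 12 did match shared reads, as Gm25443 did together with Scarna17 (5.05 RPM in PANDORA-seq). All 75 were seen in PANDORA-seq, 60 of them in every library, and 63 were seen in traditional-seq, 39 of them in every library. The members gave 23001 distinct sequences in PANDORA-seq and 2628 in traditional-seq. PANDORA-seq had more libraries with more reads in each, and counts of loci and of distinct sequences rise with depth. Reads that matched several members took 3.59% and 10.2% of member reads, and reads that also matched an annotated transcript outside the set took 7.43% and 2.58%. Most of the members at higher levels lay in a host gene, since 46 of 65 such loci and 4 of 22 loci without a host averaged at least 1 RPM in PANDORA-seq. The sequence ACANNN closed the annotated RNA of 55 of the 87 loci, and 50 of these 55 had PANDORA-seq reads that matched no other member.

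The class was carried by few members. In PANDORA-seq, Snora7a alone held 24.8% of member reads and the 12 most abundant members held 66.4%, while in traditional-seq the 12 most abundant held 86.0%. Reads that matched several members were not credited to any single member in these shares. Snora7a, which lies in the ribosomal protein gene Rpl32, averaged 173 ± 67.1 RPM in PANDORA-seq. Its WT libraries ran from 88.6 over a median of 171 to 302 RPM and its AD libraries from 77.3 over 168 to 236 RPM. The groups overlapped widely. Scarna10, a scaRNA with both C/D and H/ACA domains, averaged 59.8 ± 29.3 RPM. Its lowest, median and highest values were 24.7, 79.3 and 105 RPM in WT and 20.8, 38.9 and 90.4 RPM in AD mice. Snora74a followed with 42.6 ± 19.1 RPM, and 1 AD library at 108 RPM stood above the rest of its group. Scarna3a (34.2 ± 6.25 RPM) and Scarna3b (32.3 ± 10.9 RPM) came next, then the C/D scaRNAs Scarna2 (21.7 ± 13.6 RPM) and Scarna17 (21.01 ± 8.997 RPM). From Scarna3a to Scarna17, the mean of each member differed from that of the next by less than the SD of either. Gm23751, Snora70, Snora31, Snora44 and Gm25492 lay between 12.1 and 19.4 RPM.

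**Figure D1:**
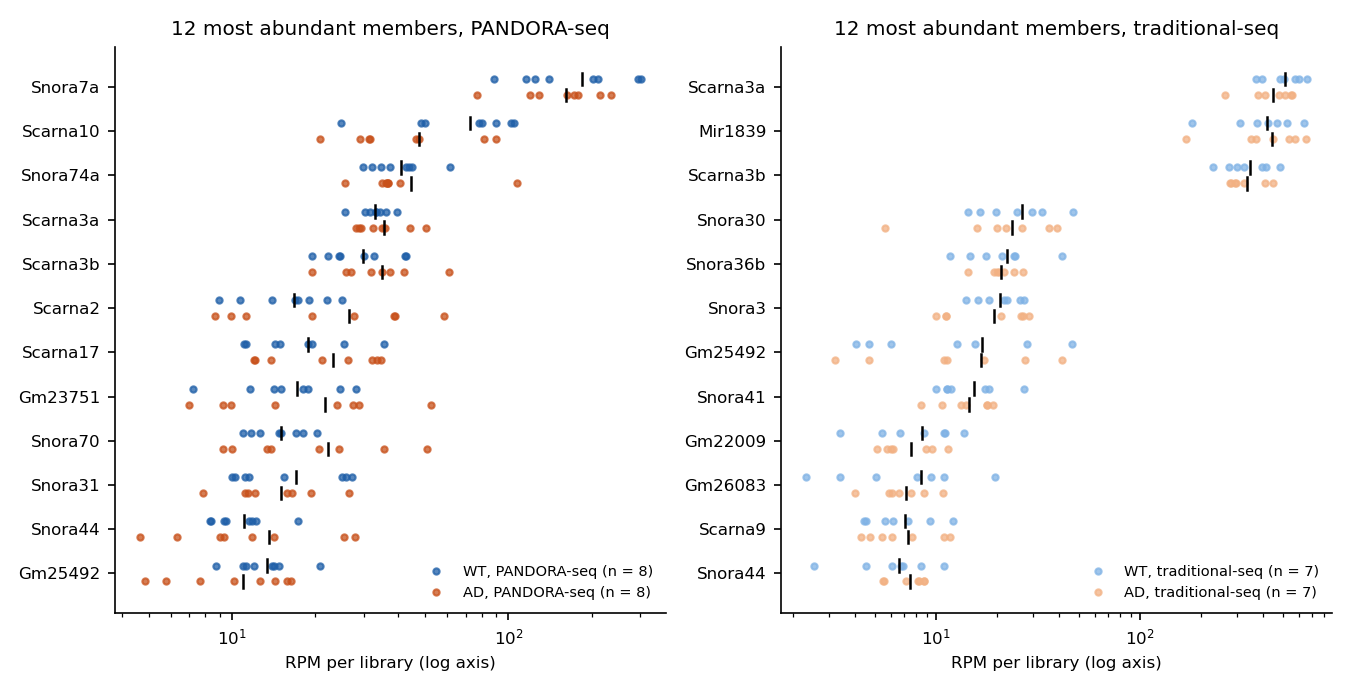
Level in RPM (log axis) of the 12 most abundant members in each protocol, 1 point for each library, with WT and AD mice in different colours and a vertical bar at the group mean. In PANDORA-seq Snora7a stands first at a mean of 173 RPM, and in traditional-seq Scarna3a, Mir1839 and Scarna3b lie between 168 and 658 RPM in every library, above the next member's mean of 25.01 RPM.

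Traditional-seq ranked the members differently. Scarna3a averaged 483 ± 108 RPM there, with 371, 510 and 658 RPM as the lowest, median and highest WT value and 261, 480 and 555 RPM as those of AD mice. Mir1839 averaged 430 ± 151 RPM (WT 180, 424 and 639 RPM, AD 168, 449 and 652 RPM). Scarna3b averaged 339 ± 77.7 RPM (WT 227, 323 and 486 RPM, AD 277, 296 and 450 RPM). These 3 members overlapped in level and stood apart from all others. The fourth was Snora30 with 25.01 ± 11.1 RPM, followed by Snora36b (21.5 ± 7.17), Snora3 (19.98 ± 6.56), Gm25492 (16.7 ± 14.1) and Snora41 (14.9 ± 4.99). Gm22009, Gm26083, Scarna9 and Snora44 lay between 7.02 and 8.08 RPM, within the spread of each other.

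Fragment length separated the protocols. In PANDORA-seq 16.98% ± 2.62 of member reads were 15 to 24 nt long, 33.9% ± 7.39 were 25 to 34 nt, 43.7% ± 7.00 were 35 to 42 nt and 5.36% ± 3.16 were 43 to 45 nt (SD, n = 16). In traditional-seq 96.8% ± 1.48 were 15 to 24 nt, 2.56% ± 1.11 were 25 to 34 nt and 0.668% ± 0.434 were 35 to 42 nt (SD, n = 14). The main length of the fragments in PANDORA-seq varied between members. Of Snora7a reads 82.4% were 35 to 42 nt, of Gm23751 reads 86.1% and of Scarna17 reads 82.9% were 25 to 34 nt, and of Gm25492 reads 53.6% were 43 to 45 nt. By contrast, 76.6% of Scarna3a and 79.7% of Scarna3b reads were 15 to 24 nt in PANDORA-seq as well. Of the 50 loci with at least 1 RPM in PANDORA-seq, 5 had most of their reads at 15 to 24 nt, 17 at 25 to 34 nt, 10 at 35 to 42 nt and 1 at 43 to 45 nt. Of the 36 such loci in traditional-seq, 22 had most of their reads at 15 to 24 nt and 9 at 25 to 34 nt.

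**Figure D2:**
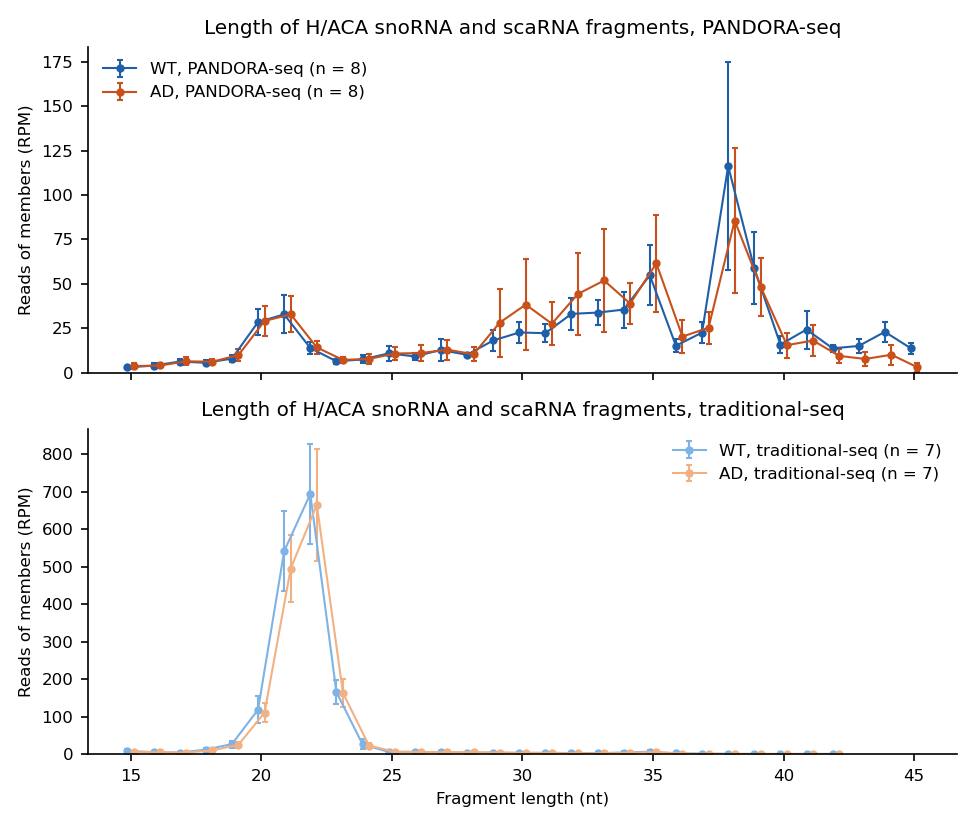
Summed RPM of member fragments (vertical axis) at each length in nt (horizontal axis), as the mean and SD over the libraries of each genotype, for PANDORA-seq above and traditional-seq below. PANDORA-seq spreads over all lengths, with 43.7% of member reads at 35 to 42 nt, and traditional-seq is concentrated at 15 to 24 nt with 96.8%.

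The part of the RNA that was covered also differed. A fragment was called a 5′ end fragment when it started within 3 nt of the first annotated base, a 3′ end fragment when it ended within 3 nt of the last, and internal otherwise. In PANDORA-seq 46.3% ± 8.55 of member reads were 5′ end fragments, 22.9% ± 4.13 were 3′ end fragments and 30.8% ± 5.93 were internal. In traditional-seq the shares were 2.73% ± 0.794, 24.6% ± 7.45 and 72.7% ± 7.43. With an exact end in place of the 3 nt, the 3′ share fell to 5.53% (PANDORA-seq) and 3.19% (traditional-seq). The 5′ share was 47.4% in WT and 45.2% in AD mice of PANDORA-seq, a difference below the spread between libraries. When each fragment was instead assigned by its midpoint to the 5′ or the 3′ side of the RNA, 43.6% of PANDORA-seq and 96.7% of traditional-seq reads fell on the 3′ side. Snora7a dominated the 5′ share, since 98.2% of its PANDORA-seq reads were 5′ end fragments. The other abundant 5′ end members were Gm23751 (89.3%), Snora31 (78.4%) and Scarna10 (73.6%). Scarna17 (94.3%), Gm25492 (85.1%) and Snora70 (72.2%) were seen mainly as 3′ end fragments. Counting loci rather than reads, 11 of the 50 loci with at least 1 RPM in PANDORA-seq had most of their reads at the 5′ end, 13 at the 3′ end, 20 inside and 6 in no single part. In traditional-seq the counts were 8, 19, 9 and 0 of 36.

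**Figure D3:**
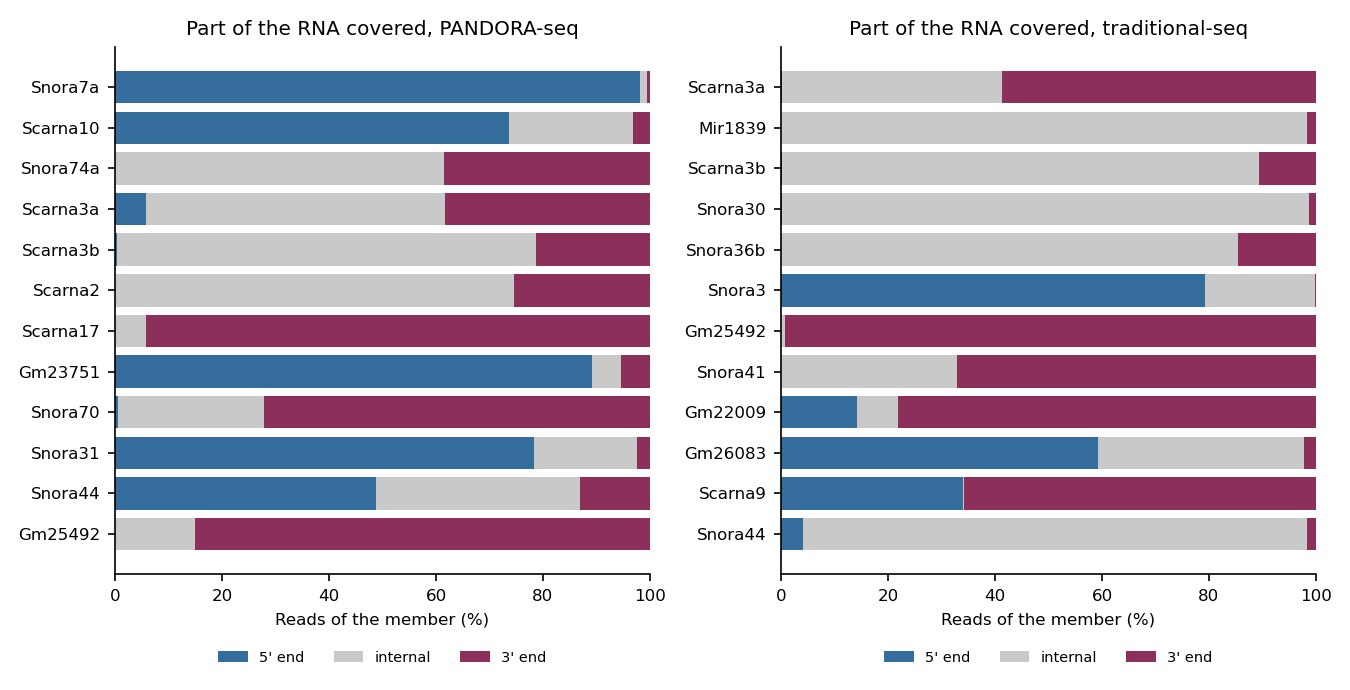
Share of the reads of each member (horizontal axis, percent) that were 5′ end, internal or 3′ end fragments, for the 12 most abundant members of each protocol, pooled over genotypes. Snora7a (98.2%) and Gm23751 (89.3%) were covered at the 5′ end in PANDORA-seq, and Gm25492 was covered at the 3′ end in both protocols (85.1% and 99.2%).

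Within the limit of 3 nt, the base at which end fragments started or ended was also counted. Internal fragments and the inner ends of end fragments are not part of these shares. Among 5′ end fragments, 89.5% in PANDORA-seq and 84.3% in traditional-seq started at base 1. Among the 3′ end fragments of loci that close with ACANNN, 80.1% of PANDORA-seq reads ended 1 nt before the annotated end, that is 2 nt after the ACA box, as in the Gm25492, Snora70 and Snora52 fragments above. Another 12.3% ended 1 nt after the box, 4.23% right after it and 3.34% at the annotated end. In traditional-seq 55.6% ended at the annotated end, 15.9% ended 1 nt before it and 24.9% ended right after the box, as in the Gm25492 and Snora41 fragments above. These shares are pooled reads, so abundant loci weigh most in them.

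Loci that overlap an annotated miRNA hairpin accounted for most of the traditional-seq signal. There were 9 such loci, namely Scarna3a, Scarna3b, Mir1839, Snora36b, Snora34, Scarna13, Snora81, Snora74a and Gm26083. They summed to 1447 ± 264 RPM in traditional-seq, 90.2% of member reads, and to 147 ± 31.8 RPM in PANDORA-seq, 21.3% of member reads. Reads that lay inside the hairpins took 89.3% and 15.1%. The members without a hairpin went the other way, with 158 ± 47.1 RPM in traditional-seq and 550 ± 128 RPM in PANDORA-seq, and the libraries of the protocols did not overlap in either sum. Scarna3a, Scarna3b and Mir1839 alone held 87.7% of traditional-seq and 10.95% of PANDORA-seq member reads. These shares include reads that matched both Scarna3 genes (155 RPM in traditional-seq and 6.72 RPM in PANDORA-seq), which the shares of the 12 most abundant members leave out. Of their reads inside the hairpins, 95.2%, 95.6% and 98.8% were 20 to 23 nt long in traditional-seq, and 67.0%, 69.5% and 86.6% in PANDORA-seq. The share of reads inside the hairpin was 99.9% for Scarna3a and Scarna3b, 91.3% for Snora34 and 89.9% for Snora36b in traditional-seq. It was lower for Gm26083 (39.6%), Scarna13 (31.5%), Snora74a (27.1%) and Snora81 (12.5%). The start of the annotated mmu-miR-1839-5p was shared by reads of 369 RPM in traditional-seq and 1.31 RPM in PANDORA-seq. Reads inside the hairpins averaged 1478 ± 274 RPM in WT and 1390 ± 264 RPM in AD mice in traditional-seq, and 102 ± 17.4 and 105 ± 26.1 RPM in PANDORA-seq, so the genotypes overlapped in both protocols.

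PANDORA-seq was then compared with traditional-seq gene by gene over all 30 libraries, with genotype as a term. A gene was called when edgeR's quasi-likelihood test with Benjamini-Hochberg adjustment put it below 0.05 and it changed more than 2-fold. Of 56 members tested among 14709 genes, 22 were lower and 20 higher in PANDORA-seq, where 8.76% and 13.4% of all genes tested were called lower and higher. These counts depended on the scaling. With library size in place of TMM factors, 8 members were lower and 34 higher, beside 3.16% and 90.6% of all 14709 genes, and the median log2 fold change of all genes moved from 0.23 to 2.19 and that of members from -0.07 to 1.86. On both scales 8 members were lower and 20 were higher, 14 were lower only with TMM and 14 were higher only with library size. The median log2 fold change on the TMM scale was -4.63 for miRNA genes, of which 365 of 422 were lower, and 0.49 for other snoRNA genes.

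Of the 8 members lower on both scales, Mir1839 averaged 430 RPM in traditional-seq and 2.07 RPM in PANDORA-seq, 208-fold lower, with a log2 fold change of -9.63 ± 0.341 on the TMM scale (SE; edgeR adjusted p = 5.14e-23). Scarna3a and Scarna3b were 14.1-fold and 10.5-fold lower in mean RPM (log2 fold changes -5.69 and -5.32). The libraries of the protocols did not overlap for these 3 members. Snora3 was 3.23-fold lower in mean RPM, also without overlap, and Snora36b (2.86-fold), Snora41 (2.56-fold) and Snora2b (5.02-fold, from 0.670 to 0.133 RPM) were lower with overlapping ranges. Snora30 was lower by this measure (3.84-fold), but when sequences that also match another annotated transcript were left out its log2 fold change turned to 2.74. Gm25395 and Scarna9 were lower on the TMM scale (log2 fold changes -2.61 and -2.56) and did not pass the threshold with library size (-0.61 and -0.59).

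Among the members higher in PANDORA-seq on both scales, Scarna10 averaged 1.51 RPM in traditional-seq and 59.8 RPM in PANDORA-seq, 39.6-fold higher, with a log2 fold change of 3.37 ± 0.238 on the TMM scale (SE; edgeR adjusted p = 1.25e-14). Snora7a averaged 4.74 and 173 RPM, 36.6-fold higher, and its log2 fold change was 3.36 ± 0.247 (SE; edgeR adjusted p = 3.73e-14). In mean RPM Snora52 was 51.4-fold higher at 9.30 RPM, Snora74a 28.4-fold at 42.6 RPM, Gm23751 27.3-fold at 19.4 RPM and Snora70 16.999-fold at 18.6 RPM. Snora47, Snora75 and Snora65 were 27.998-fold, 16.1-fold and 13.1-fold higher. Each traditional-seq library held 0 to 8 reads of Snora52, 0 to 6 of Snora47 and 0 to 8 of Snora75. Gm23751 had 0 to 19 and Snora65 had 4 to 13 reads in each of these libraries. The folds of Snora52, Snora47 and Snora75 thus rest on counts near the floor, and those of Gm23751 and Snora65 on low counts as well. The libraries of the protocols did not overlap for any of these 9 members. Snora33 was called higher as well, from 1 read in all traditional-seq libraries to a mean of 0.951 RPM in PANDORA-seq, and no fold is given for it. Snora35, whose host gene is the serotonin receptor gene Htr2c, was higher at 3.99 ± 3.24 against 0.252 ± 0.259 RPM.

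**Figure D4:**
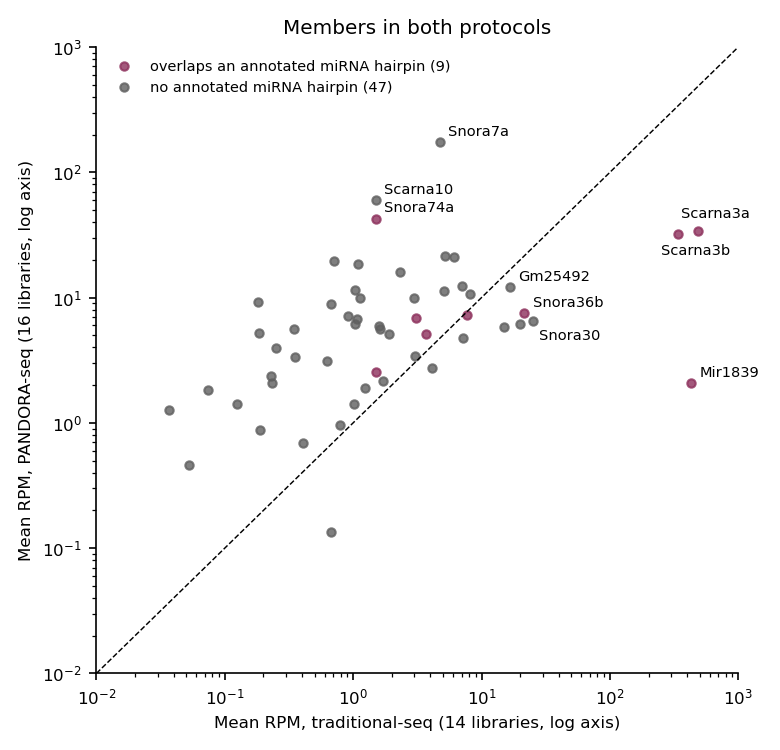
Mean RPM of tested members in PANDORA-seq (vertical log axis, 16 libraries) against traditional-seq (horizontal log axis, 14 libraries), with the line of equal RPM dashed and the 9 members that overlap an annotated miRNA hairpin coloured. Snora33, at 0.00502 RPM in traditional-seq, falls left of the axis; Mir1839, Scarna3a and Scarna3b lie far below the line (208-fold, 14.1-fold and 10.5-fold), and Snora7a and Scarna10 lie above it (36.6-fold and 39.6-fold).

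The same contrast was fitted to 5′ end, 3′ end and internal fragments of all annotated small RNA genes. TMM factors were computed anew for this fit, at 0.40 to 1.04 in PANDORA-seq and 1.21 to 2.05 in traditional-seq libraries. In the gene fit they were 0.91 to 3.55 and 0.26 to 0.79. Log2 fold changes of end classes and of genes are thus on different scales and cannot be set side by side. Of 123 member classes tested, 12 were lower and 97 higher in PANDORA-seq, where 27.6% and 57% of all 1308 tested were lower and higher. With library size 19 were lower and 82 higher, beside 36.2% and 48.1% of all 1308 classes. The median log2 fold change was 3.62 for members and 1.83 for all tested. The 5′ end fragments of Snora7a averaged 182 ± 81.5 RPM in WT and 158 ± 51.9 RPM in AD mice in PANDORA-seq, and 1.27 ± 1.15 and 1.27 ± 0.675 RPM in traditional-seq (log2 fold change 8.37). The 3′ end fragments of Snora74a were called higher with 16.7 and 16.5 RPM against 0.0997 and 0.0471 RPM in WT and AD mice. These traditional-seq levels are near the floor, so no fold is given for Snora74a. Both sets of libraries were far apart. The 5′ end fragments of Scarna10 (log2 fold change 7.68), Snora16a (7.34) and Snora44 (5.49), the 3′ end fragments of Snora52 (6.69) and the internal fragments of Snora52 (7.68), Scarna17 (7.27), Snora31 (5.95) and Scarna2 (4.67) were also higher. Over all its fragments Snora52 had 0 to 8 reads in each traditional-seq library, so its log2 fold changes rest on counts near the floor. Scarna17 was seen mainly at its 3′ end, so its internal class was small as well. Traditional-seq counts of the other higher classes are not given here, and the size of their log2 fold changes is uncertain where those counts were low. Lower classes were the internal and 3′ end fragments of Mir1839 (-6.83 and -5.90) and Scarna3a (-2.23 and -3.19), the internal fragments of Scarna3b (-2.45) and Snora2b (-1.75), the 3′ end fragments of Snora36b (-2.66) and Snora41 (-2.06), and the 5′ end fragments of Snora3 (-1.97) and Gm25395 (-1.99). The most abundant fragment of Scarna3a ended 3 nt before the annotated end, the limit of the 3′ class. When an exact end was required, the log2 fold change of the Scarna3a 3′ end fragments was 0.81.

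Comparing AD with WT mice in PANDORA-seq asked whether any member changed in level with the 5xFAD genotype, and no member gene did at the threshold. Of 59 members tested, 0 were lower and 0 higher, where 0.012% and 0% of all 16646 genes tested were called lower and higher. By edgeR's quasi-likelihood test 11 members had an unadjusted p under 0.05, as did 10.5% of all 16646 genes, and the likelihood ratio test and DESeq2, with 14 such members each beside 10.9% and 12.1% of all genes, also called 0 members. Over all genes the likelihood ratio test called 17 lower and 9 higher, and DESeq2 called 21 in each direction. The number of members with an unadjusted p under 0.05 was 5 with library size, 4 with 15 to 40 nt and 6 with the replicate block, beside 5.1%, 7.95% and 9.19% of all genes. It was 18 without WT library 8, beside 16.1% of all genes. It was 7 without WT library 1 or 7 or AD library 4, beside 7.29% to 9.64% of all genes, 6 without WT library 2 or 4, beside 8.11% and 7.18%, and 5 without AD library 7, beside 9.47%. The median log2 fold change was 0.32 for members and 0.06 for all genes, with 44 members above 0 and 15 below, beside 57.2% of all genes above 0. Leaving out 1 library moved the members' median from 0.19 without AD library 8, with 37 members above 0 and 22 below, to 0.45 without WT library 8, with 50 above and 9 below, and it was 0.21 without WT library 7. With library size in place of TMM these medians were 0.06 and -0.35, with 32 above 0 and 27 below, beside 23.6% of all genes above 0. The erythroid and muscle hairpins, which in PANDORA-seq were highest in AD libraries, are given above, and their part in these differences was not tested. In bulk tissue, fewer cells of a type and less RNA per cell cannot be told apart. The lower member with the smallest p was Snora34, whose lowest, median and highest values were 3.93, 6.31 and 11.4 RPM in WT and 0.601, 2.92 and 6.52 RPM in AD mice. The groups overlapped, and the log2 fold change was -0.87 ± 0.323 (SE; edgeR adjusted p = 0.437) and turned to 0.14 with sequences of 15 to 40 nt only. Among the higher members Snora19 (log2 fold change 1.06), Snora70 (0.78) and Snora33 (1.29) had the smallest p, each at an edgeR adjusted p of 0.437, and leaving out 1 library gave 0.70 to 1.18 for Snora19 and 0.77 to 1.45 for Snora33. Snora70 ran from 10.9 over 14.9 to 20.3 RPM in WT and from 9.29 over 17.2 to 51.0 RPM in AD mice, so the AD libraries were spread wider on both sides. Snora23 and Snora17 had log2 fold changes of -0.42 and -0.21, and that of Snora17 turned to 0.056 with 15 to 40 nt. Leaving out 1 library gave -0.80 to -0.31 for Snora23 and -0.35 to -0.049 for Snora17.

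Fragment length showed differences that the gene sums did not. Each small RNA gene was split into fragments of 15 to 24, 25 to 34, 35 to 42 and 43 to 45 nt, and of 184 member classes tested 19 were lower and 4 higher in AD mice, where 11.2% and 1.48% of all 1829 classes were called. All 19 lower classes were fragments of 43 to 45 nt, of which 33 member classes were tested, and 66.1% of the 298 tested classes of this length were lower over all small RNA genes. The members' median log2 fold change at this length was -1.75, against -1.97 for all genes. The members' calls at this length were near this background and are not a result particular to them. Of all reads, 15.5% ± 3.19 were 43 to 45 nt in WT libraries (11.2 to 21.5%) and 4.95% ± 2.90 in AD libraries (2.13 to 10.7%), without overlap. Member fragments of 43 to 45 nt summed to 51.5 ± 11.7 RPM for WT (lowest 34.6, median 50.5, highest 67.3) and 20.6 ± 12.3 RPM for AD mice (lowest 7.52, median 18.05, highest 41.4). The 2 highest AD libraries reached into the WT range. Scaled instead to the reads of 43 to 45 nt alone, the members had 333 ± 40.9 RPM of that length for WT (259 to 394) and 423 ± 108 for AD mice (314 to 628), so that relative to reads of the same length the AD mean was the higher one. The labels do not say whether the gel cut or the handling differed between the genotypes, and the genotype cannot be told apart from such a difference here.

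**Figure D5:**
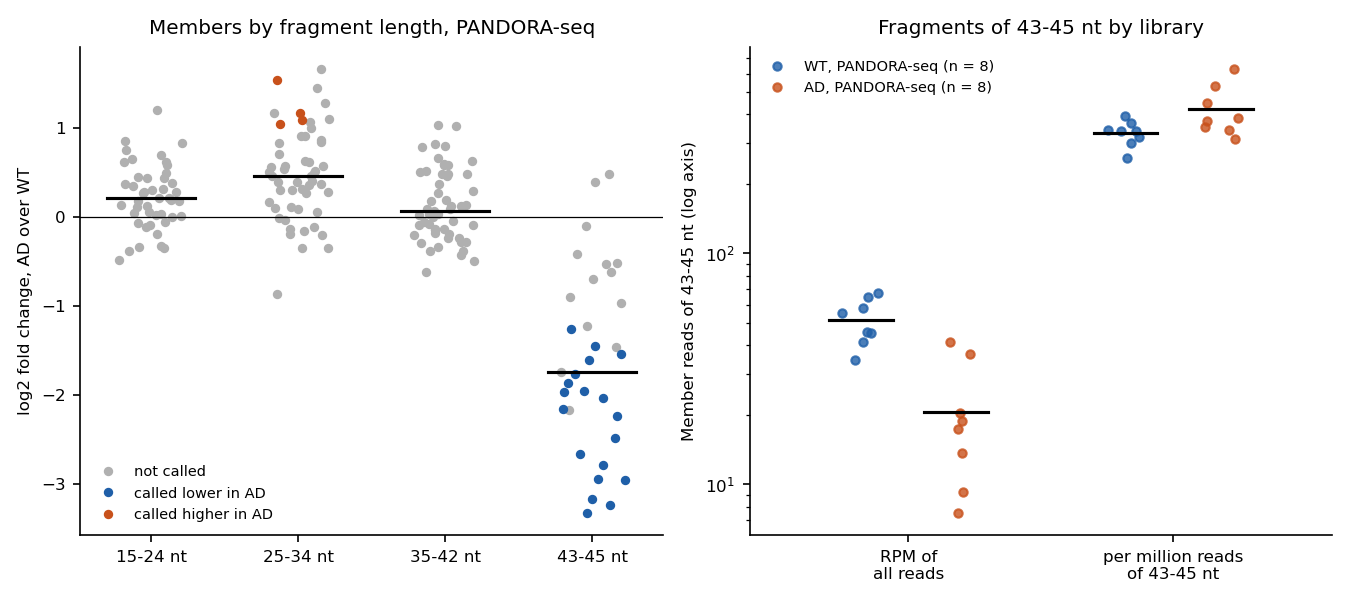
Left, log2 fold change of AD over WT mice in PANDORA-seq for each tested member at each fragment length in nt, coloured where called, with a bar at the median; right, member fragments of 43 to 45 nt in each library on a log axis, as RPM of all reads and as RPM of the reads of 43 to 45 nt, with a bar at the group mean. The called classes are 19 lower at 43 to 45 nt and 4 higher at 25 to 34 nt, and the mean of 51.5 RPM in WT against 20.6 RPM in AD mice becomes 333 against 423 RPM of that length.

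For 4 of the lower classes the most abundant fragment of 43 to 45 nt is shown, as an example of a fragment of this length.
Snora34: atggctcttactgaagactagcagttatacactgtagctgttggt
Scarna10: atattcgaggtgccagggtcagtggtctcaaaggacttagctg
Scarna9: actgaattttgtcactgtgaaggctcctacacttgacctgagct
Snora69: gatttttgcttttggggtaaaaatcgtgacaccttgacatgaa
The 45-nt Snora34 sequence (chr15:98519809-98519853, minus strand, in an intron of Kansl2) started at base 1. The others were 43 nt of Scarna10 (chr6:125186409-125186451, minus strand), 44 nt of Scarna9 (chr9:15326266-15326309, minus strand, in an intron of Cep295) and 43 nt of Snora69 (chrX:37082917-37082959, minus strand, in an intron of Rpl39). Snora34 fragments of 43 to 45 nt had lowest, median and highest values of 2.60, 3.43 and 7.49 RPM in WT and of 0, 0.160 and 1.19 RPM in AD mice. The groups did not overlap, and the log2 fold change was -3.32 ± 0.597 (SE; edgeR adjusted p = 0.000658). Scarna10 fragments of this length had 2.73, 5.94 and 14.4 RPM in WT and 0.182, 0.467 and 1.97 RPM in AD mice, again without overlap (log2 fold change -2.96). Snora69 fell by 3.17 and Scarna9 by 2.94 on the log2 scale, with the smallest edgeR adjusted p of the set (2.87e-05 and 6.01e-05). Snora17 (-3.24), Gm25395 (-2.79), Snora62 (-2.66), Snora3 (-2.48), Snora44 (-1.77) and Snora16a (-1.26) completed the 10 lower classes with the smallest p. Without library 3 of both genotypes 11 of the classes at all lengths were lower and 2 higher, beside 9.1% and 1.51% of all 1858 classes.

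At 15 to 24 nt (45 tested) and 35 to 42 nt (53 tested) 0 member classes were called, where 2.56% and 0.685% of all classes of these lengths were higher and 0.16% and 1.37% lower. The higher classes were fragments of 25 to 34 nt, of which 4 of 53 member classes were higher and 1.71% of all 467 classes of this length. The median log2 fold change at this length was 0.46 for members and 0.32 for all classes, so these calls sit on a general upward shift. Snora7a fragments of this length, whose most abundant sequence was the first 30 nt of the RNA, had 11.5, 17.9 and 28.6 RPM as lowest, median and highest value in WT and 12.6, 26.8 and 90.0 RPM in AD mice (log2 fold change 1.17 ± 0.375 SE, edgeR adjusted p = 0.0436). Scarna2 had 3.13, 4.51 and 7.03 RPM in WT and 3.31, 8.04 and 24.1 RPM in AD mice (1.09). Snora41 (1.05) and Scarna8, a scaRNA of the H/ACA type (1.55), were the others. The groups overlapped in all 4, and the highest values were in AD libraries. With library size in place of TMM, with DESeq2's size factors in edgeR, or with the replicate block, 0 member classes were called higher.

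Among 5′ end, 3′ end and internal fragments, 4 of 130 member classes were lower and 1 higher in AD mice, where 4.1% and 0.596% of all 1342 classes were called. The member calls were near these shares and are not a result particular to members. With an exact end in place of the 3 nt, 1 member class was lower. The lower ones were 3′ end fragments of Gm25395 (log2 fold change -2.13; edgeR adjusted p = 0.000622), of Scarna10 (-1.69) and of Snora34 (-2.06), and 5′ end fragments of Snora34 (-1.46). Scarna10 3′ end fragments had 1.04, 2.95 and 4.49 RPM as lowest, median and highest value in WT and 0.291, 0.822 and 1.62 RPM in AD mice. The groups overlapped for Scarna10 and for both Snora34 classes, and did not for Gm25395, which had 0.381 to 1.02 RPM in WT and 0 to 0.206 RPM in AD mice. The Snora41 3′ end fragments were higher at 1.02 (edgeR adjusted p = 0.0481), a call lost with library size, with DESeq2's size factors in edgeR, with the replicate block, with the loose filter on low counts and with an end tolerance of 0 or 10 nt. With sequences of 15 to 40 nt only, 0 classes were called in either direction, and Scarna10 3′ and Snora34 5′ end fragments had log2 fold changes of 0.15 and 0.11.

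In traditional-seq no member was called between AD and WT mice. The fits tested 36 members among 5381 genes, 42 member classes among 698 end classes and 35 among 732 length classes, and each called 0 members and 0% of all tested in either direction. By edgeR's quasi-likelihood test 0 member genes had an unadjusted p under 0.05, beside 2.77% of all genes, and DESeq2 gave 1 such member, beside 4.18%, and no member call. The libraries of traditional-seq hold no sequence over 42 nt, so the longest class could not be examined there. A test of whether the AD against WT difference depended on the protocol called 0 of 58 members and 0% of 16574 genes, with 5 members at an unadjusted p under 0.05 by edgeR, 7 by the likelihood ratio test and 4 by DESeq2, beside 6.44%, 8.5% and 8.03% of all genes.

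Members were also grouped by their known roles, and no group held a call between AD and WT mice in PANDORA-seq, against the background of 0.012% and 0% given above. Of 16 listed names of H/ACA scaRNAs, 4 were in vM21 and tested, with a median log2 fold change of 0.41. The listed C/D scaRNAs (3 tested) had 0.51 and the listed scaRNAs with both domains (2 tested) -0.06. These lists do not cover all scaRNA genes of the set. Snora73a and Snora73b, the U17 RNAs that act in processing of 18S rRNA, had a median of 0.17, and levels of 3.14 ± 0.923 and 2.07 ± 0.769 RPM in PANDORA-seq and 0.625 ± 0.609 and 0.235 ± 0.264 RPM in traditional-seq. Reads that matched both, 2.11 RPM in PANDORA-seq and 0.310 RPM in traditional-seq, are not in these levels. The 9 tested members of the classic U and E series had a median of 0.35. The 3 tested members of a list of H/ACA RNAs named for miRNA-like products in vertebrates had -0.04. That list did not hold Scarna3a, Scarna3b or Mir1839, so this value does not describe them. Snora35 had a log2 fold change of -0.22. Of the genes of the H/ACA pathway, 13 were tested as fragments of their transcripts, namely the core proteins Dkc1, Gar1, Nhp2 and Nop10, 6 assembly and localisation factors and 3 factors of 3′ end trimming. None of the 13 was called between AD and WT mice in PANDORA-seq, and the smallest p belonged to Coil, the scaffold protein of Cajal bodies (log2 fold change -0.76; edgeR adjusted p = 0.437). Between the protocols Nop10 and Smn1 were lower (log2 fold changes -1.74 and -1.35) and Naf1, an assembly factor, was higher (1.29) on the TMM scale, whereas with library size Nop10 and Smn1 turned to 0.22 and 0.54 without a call and 11 of the 13 were higher, as were 90.6% of all genes. The 2 pathway genes that passed the filter in traditional-seq were not called between AD and WT mice. The telomerase RNA Terc did not pass the filter on low counts.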

How the data were processed

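Small RNA was sequenced by PANDORA-seq (8 WT and 8 AD libraries) and by traditional-seq (7 and 7). The authors deposited, for each library, a list of distinct insert sequences of 15 to 45 nt with the whole-number count of reads of each; the labels name the build mm39, and the lists hold no coordinates. The aligner does not bear on these counts, since sequences were matched here directly. The library lists hold 54926347 to 105876141 reads (PANDORA-seq) and 9370669 to 17053412 reads (traditional-seq), with no molecular identifiers. There were 0 columns of other samples.

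Members were the genes of GENCODE vM21 (GRCm38) given in the report, and every sequence was matched exactly and sense to vM21 transcripts with a program built with g++ 11.4.0, Python 3.11.15, pandas 2.3.3 and numpy 2.4.6. In a test with simulated inserts of known origin the matching recovered each insert. Sequences that matched several members entered class sums only. Mature miRNAs are RefSeq's. Counts were fitted over all genes, or over end classes or length classes of all small RNA genes, with edgeR 4.0.16 in R 4.3.3 (quasi-likelihood test, TMM factors, library size of all reads, filterByExpr with a minimum count of 10 and a total of 15), with Benjamini-Hochberg adjustment over all features of a fit; calls needed an adjusted p below 0.05 together with a change above 2-fold, as in the study, which used edgeR's likelihood ratio test. Groups came from the labels. The libraries of both protocols were treated as independent, although file names carry codes that occur in both protocols and whether these mark shared mice is not stated. A fit with this code as a block was an alternative. In data simulated for the AD against WT contrasts, 200 of 200 genes changed 4-fold were called in PANDORA-seq and 192 of 195 tested in traditional-seq, along with 12 and 9 unchanged genes. The simulation gave all genes the same dispersion and drew the changed genes from those with higher mean counts. It therefore does not give the power of these contrasts in the real data.

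Alternatives were the likelihood ratio test, DESeq2 1.42.0, DESeq2 size factors in edgeR, library size without TMM, a loose filter of 10 reads in all, a replicate block, sequences of 15 to 40 nt or of 20 nt or longer, shared sequences counted for each member, end tolerances of 0 and 10 nt, and each library left out. The text names the 12 most abundant members of each protocol, up to 10 called members per direction by adjusted p, the 3 smallest p where fewer than 3 were called, and members of the role lists. The members and lists were chosen with earlier results of these data known. Members on chromosome 18 are described without sequence.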

Additional observations from a re-analysis of the deposited data

Results flagged for a closer look

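Of 74 groups of libraries examined, 3 had a highest library that stood apart by Dixon's 95% criterion, and chance gives such a gap in about 1 in 20 groups. Snora74a reached 108 RPM in AD library 7 of PANDORA-seq, where the median of the group was 36.5 RPM. Snora44 reached 17.4 RPM in WT library 2 of PANDORA-seq, against a median of 10.5 RPM. Snora36b reached 41.6 RPM in WT library 2 of traditional-seq, against a median of 21.004 RPM.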

How the results depend on the processing

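Of 247 counts of called members recomputed under alternatives, 223 stayed within 1.5 times the reported count and 24 moved; the cause was not tested. Among member end classes of AD against WT mice in PANDORA-seq, 0 were lower with 15 to 40 nt and 1 with an exact end, in place of 4. The 1 higher end class became 3 with the likelihood ratio test and DESeq2, 2 with 20 nt or longer, with shared sequences counted for each member and without sequences that match another transcript, and 0 with DESeq2 size factors in edgeR, library size, the loose filter, the replicate block, 15 to 40 nt and end tolerances of 0 and 10 nt. The 4 higher member length classes became 7 with the likelihood ratio test, 2 without library 3 of both genotypes, 1 with the loose filter, and 0 with DESeq2 size factors in edgeR, library size and the replicate block; the 19 lower became 11 without library 3 of both genotypes. Between protocols, library size gave 8 lower and 34 higher member genes and 19 lower member end classes. Leaving out each library in turn gave 0 called member genes between AD and WT mice in both protocols.

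Correlations of same-numbered WT and AD libraries ran from -0.26 to 0.42 in PANDORA-seq and from -0.06 to 0.25 in traditional-seq. Differently numbered libraries were not compared, so whether the number marks a pair or a batch cannot be told. With the replicate block, 20 member length classes and 4 member end classes were lower, beside 11.6% and 3.5% of all classes, and 0 member genes were called between AD and WT mice in PANDORA-seq and 0 in traditional-seq. Between the protocols 22 member genes were lower and 19 higher, beside 7.68% and 13.4% of all genes. With the code of the file names as the block, 22 member genes were lower and 19 higher, beside 8.94% and 10.2% of all genes, and 13 member end classes were lower and 82 higher, beside 30.4% and 53.3% of all classes.

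Of values for single members, 798 kept direction and side of the threshold, 31 kept direction only and 6 turned. With 15 to 40 nt the log2 fold changes of AD over WT mice were 0.056 for Snora17, 0.14 for Snora34, 0.15 for Scarna10 3′ and 0.11 for Snora34 5′ end fragments. Between protocols, Snora30 had 2.74 without sequences that match another transcript, and Scarna3a 3′ end fragments 0.81 with an exact end. The 3′ end share moved to 5.53% and 28.7% in PANDORA-seq with tolerances of 0 and 10 nt, and to 3.19% in traditional-seq with 0 nt. The midpoint gave 3′ shares of 43.6% and 96.7%, and a 5′ share of 56.4% in PANDORA-seq. Leaving out library 3 and leaving out sequences that match another transcript were chosen after seeing the data. Matching to the genome and extending members by 10 nt were not run, since no genome sequence was used here. Length classes at 15 to 40 nt gave no value. Reads per member in traditional-seq limit members under 1 RPM most, and reads without molecular identifiers are not independent molecules.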
